A study of Mus musculus with 4 samples.

Results

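Islet lineage transcription factors are the DNA-binding proteins that set and keep the identity of the hormone cells of the pancreas. The set described here holds 32 genes listed by symbol for beta, alpha, delta and endocrine progenitor identity, of 52636 gene rows in the count table, and each symbol matched 1 row. RNA was sequenced from whole islets of wild-type mice (control, 2 libraries) and of mice without Tspan7 (genotype Tspan7 y/-, Tspan7 being a membrane protein of the tetraspanin family; knockout, 2 libraries). Values are given for control 1 and control 2 (replicates 1 and 2 of the labels) and then for knockout 1 and knockout 2. The labels used here give no treatment, age or strain, and do not state whether each library is a different mouse, so p-values measure only the spread between these libraries, which may be technical. The series studies the part of Tspan7 in the calcium sensitivity of beta-cell exocytosis, and the comparison below asks whether the factors that define islet cells differed between the genotypes.

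In development, Neurog3 commits pancreatic progenitors to the endocrine fate and then switches off, and factors such as Neurod1, Insm1, Pax6, Isl1 and Nkx2-2 carry the endocrine programme onward. Pdx1, Nkx6-1 and Mafa then hold beta cells in their mature state, and Pdx1 and Mafa activate the insulin genes. Irx1 and Irx2 mark alpha cells and Hhex delta cells. Whole islets mix all of these cell types, so fewer cells of a type and less RNA per cell cannot be told apart in the values that follow.

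The libraries held between 7855665 and 9377220 counts. Tspan7 itself gave 1924 and 1795 counts in controls, against 3 and 2 counts in knockouts, as labelled. As the islet label requires, the hormone genes Gcg, Sst and Ins2 (glucagon, somatostatin and insulin) were abundant, with mean control levels of 6699.96, 929.5 and 6009 CPM (counts over the scaled library size, as edgeR reports it). RNA of acinar cells, the enzyme-secreting cells around the islets, varied widely among the libraries. The summed level of 14 acinar genes was 2980 and 72.6 CPM in controls 1 and 2, and 1340 and 6274 CPM in knockouts 1 and 2.

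No islet lineage factor passed the test for a difference between the genotypes. Of the 32 factors 29 were abundant enough to test, and 0 passed at an adjusted p under 0.05 in edgeR's quasi-likelihood test, where 0.00591% of all 16924 tested genes (Tspan7 alone) did. At an unadjusted p under 0.05, 1 factor was higher (Mlxipl) and 0 were lower, against 1.55% of all tested genes higher and 1.96% lower; DESeq2, which called 0.0355% of all tested genes at an adjusted p under 0.05, gave 0 factors at either level. The log2 fold changes, knockout against control, ran from -0.37 for Bach2 to 0.42 for Myt1. Their median was 0.11, where that of all tested genes was 0.0034. Of the 29 values 17 were above 0 (58.6%), against 50.6% of all tested genes.

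The intervals show how large a difference these libraries could have hidden. For 15 of the 29 tested factors the 95% confidence interval (CI) of the fold change stayed within 1.5-fold in either direction, and for 24 it stayed within 2-fold. The 5 wider intervals belonged to Irx1, Hnf4a, Hnf4g, Neurog3 and Bach2. For 28 factors the fold change was smaller than the largest gap between the 2 libraries of a group, as it was for 81.1% of all tested genes, and Mlxipl was the exception. Knockout libraries lay above both control libraries for 4 factors (13.8%), Mlxipl, Myt1, Nkx2-2 and Glis3, against 15.3% of all tested genes. They lay below both for 0 factors, against 15.0%.

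**Figure D1:**
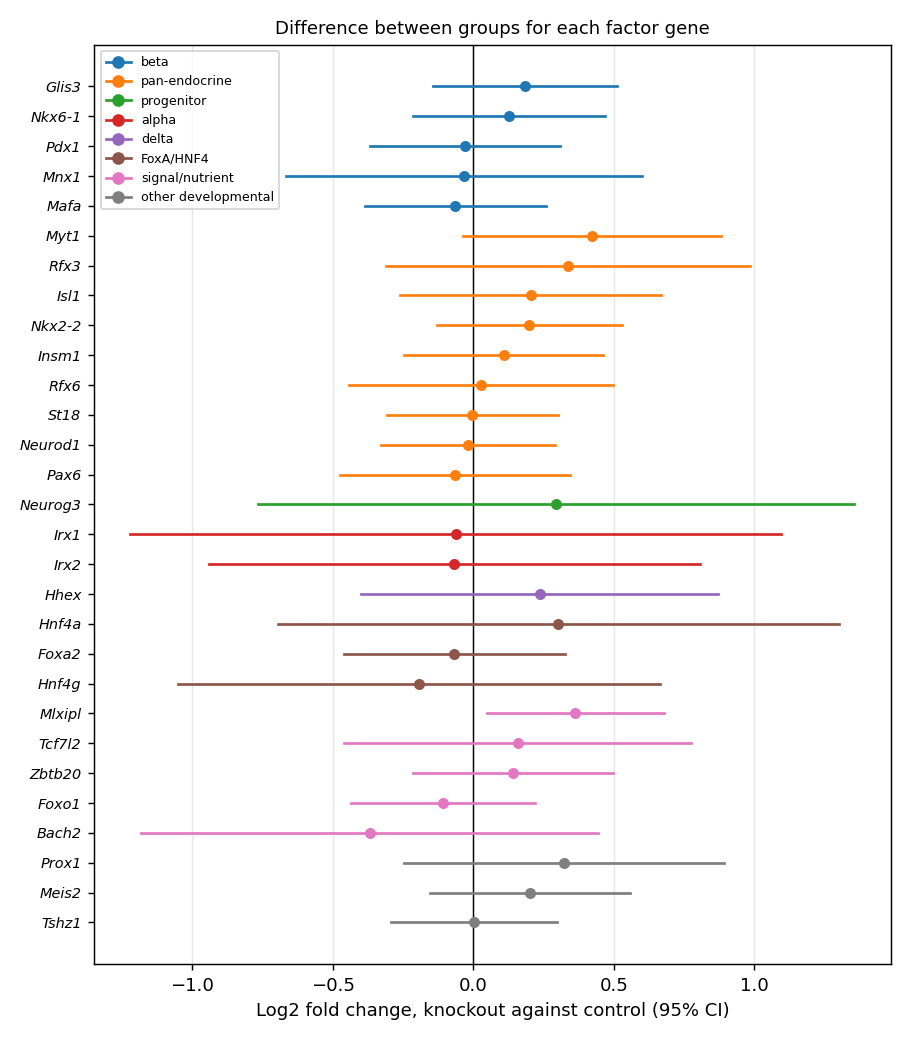
Fitted log2 fold change, knockout against control, of the 29 tested factor genes (points) with its 95% confidence interval (lines), coloured by role. Intervals of 28 genes cross 0, and that of Mlxipl runs from 0.05 to 0.68 before any adjustment.

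Levels between genes are given per kb of exon, from the merged exons of all isoforms in GENCODE M21, which lowers genes with many isoforms such as Zbtb20 and Pax6. Neurod1, the E-box-binding factor that drives insulin transcription, was the most abundant. Its levels were 140.4 and 143 CPM per kb in control libraries and 130.04 and 150.04 CPM per kb in knockout libraries, at or above 98.8% of tested genes on that scale. Nkx6-1, a homeodomain repressor required in beta cells, followed at 88.9 and 101 CPM per kb in control and 94.5 and 113 CPM per kb in knockout libraries. These 2 genes did not overlap with each other or with the next in any library. Below them Insm1, a zinc-finger factor of endocrine differentiation, and St18, a zinc-finger gene related to Myt1, had mean levels of 64.1 and 53.3 CPM per kb, and their ranges overlapped. Pdx1, the homeodomain master regulator of the pancreas, had a mean level of 45.1 CPM per kb. Altogether 9 of the tested factors lay in the top 10% of tested genes by level per kb and 20 in the top 25%.

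**Figure D2:**
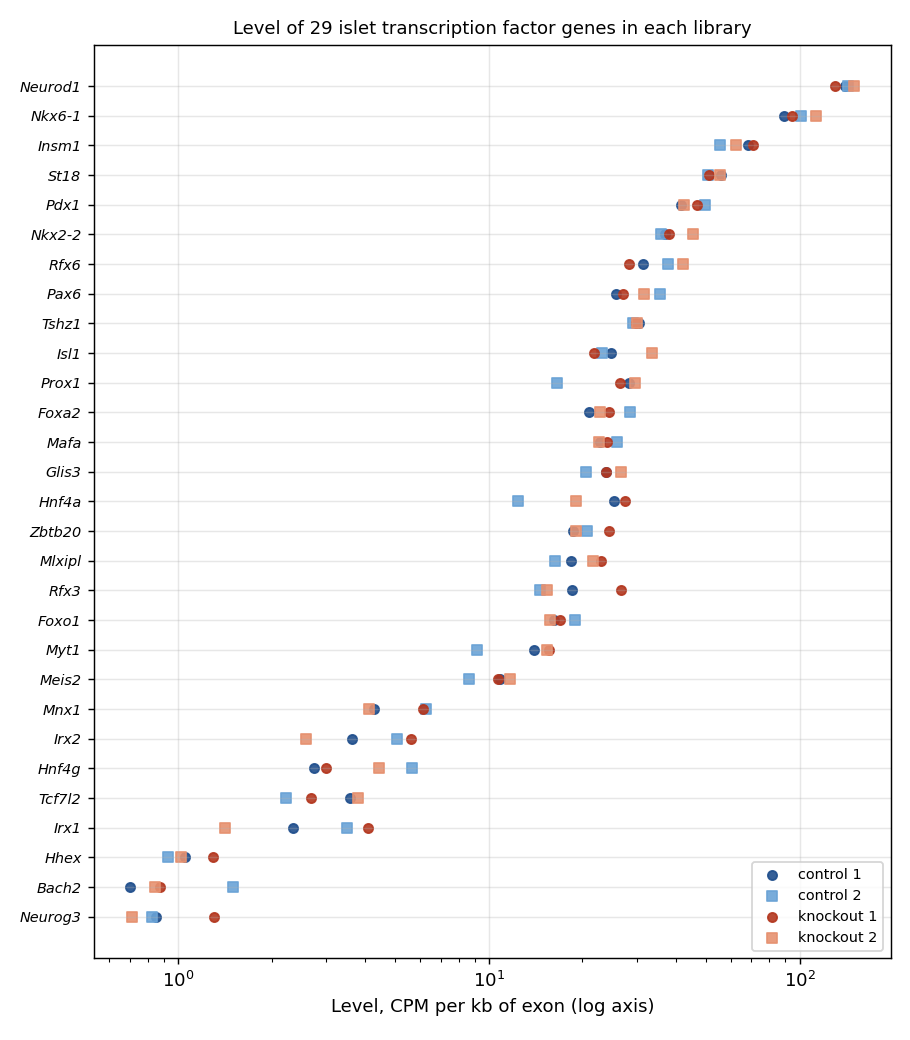
Level of each of the 29 tested factor genes (rows) in the 4 libraries, in CPM per kb of exon on a log axis, with circles for replicate 1 and squares for replicate 2 of control (blue) and knockout (red). Neurod1 sits at the top between 130.04 and 150.04, and Neurog3 at the bottom between 0.713 and 1.30; blue and red points intermingle in most rows.

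The lowest mean levels per kb belonged to Bach2, Neurog3 and the 3 factors left out by the low-count filter. Neurog3, the trigger of endocrine commitment, had 12 and 13 counts in controls, against 21 and 9 counts in knockouts, or 0.848, 0.825, 1.30 and 0.713 CPM per kb. Its groups overlapped, and the log2 fold change of 0.30 ± 0.46 was -0.23 without knockout 1 and 0.63 without knockout 2. Its exons share 273 bases with Fam241b on the opposite strand, which had 59 to 71 counts, and whether the authors' counting used strand is not given in the sources used here. The 3 factors under the low-count filter were Pou3f4, Foxa1 and Pax4. Pou3f4, a POU-homeodomain gene expressed in alpha cells, had 7 and 9 counts in controls, against 6 and 4 in knockouts. Foxa1, a forkhead pioneer factor that works beside Foxa2, had 1 and 6 counts against 4 and 4. Pax4, which favours the beta over the alpha fate during development, had 1 count in all, in knockout 1. With 3 counts as the floor (0.312 to 0.398 CPM, counting error only), Pax4 was not detectable at this depth in any of the 4 libraries.

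The windows before the transcription start are printed for 3 factors. Neurod1 was taken as the most abundant, Nkx2-2 as a factor whose groups did not overlap, and Mlxipl as the factor with the smallest p. Such separation, with knockout libraries higher, was seen for 13.8% of tested factors and 15.3% of all tested genes. It does not set Nkx2-2 apart, whose log2 fold change of 0.20 was smaller than its largest gap within a group, 0.26. The windows come from RefSeq on GRCm38.p6, 250 bases each and 5′ to 3′ on the gene's strand. They are not in the coordinates of the authors' GRCm39. Capitals mark matches to CANNTG, the E-box of basic helix-loop-helix factors such as Neurod1, and to TAATTA, a core read by many homeodomain factors.
Neurod1, chr2:79456637-79456886, - strand: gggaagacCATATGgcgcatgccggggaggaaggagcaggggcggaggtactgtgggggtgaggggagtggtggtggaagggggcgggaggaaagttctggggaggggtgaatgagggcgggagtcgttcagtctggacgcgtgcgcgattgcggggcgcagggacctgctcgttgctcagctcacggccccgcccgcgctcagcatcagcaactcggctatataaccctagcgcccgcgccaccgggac
Nkx2-2, chr2:147186403-147186652, - strand: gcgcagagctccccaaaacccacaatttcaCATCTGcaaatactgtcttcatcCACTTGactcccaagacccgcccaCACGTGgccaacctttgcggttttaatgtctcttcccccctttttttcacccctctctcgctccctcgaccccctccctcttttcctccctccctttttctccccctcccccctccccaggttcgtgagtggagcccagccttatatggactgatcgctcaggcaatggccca
Mlxipl, upstream start, chr5:135089640-135089889, + strand: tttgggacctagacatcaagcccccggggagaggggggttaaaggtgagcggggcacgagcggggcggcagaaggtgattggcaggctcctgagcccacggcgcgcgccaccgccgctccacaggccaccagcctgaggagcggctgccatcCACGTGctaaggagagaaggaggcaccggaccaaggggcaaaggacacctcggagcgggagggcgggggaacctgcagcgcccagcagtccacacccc
Mlxipl, downstream start, chr5:135106641-135106890, + strand: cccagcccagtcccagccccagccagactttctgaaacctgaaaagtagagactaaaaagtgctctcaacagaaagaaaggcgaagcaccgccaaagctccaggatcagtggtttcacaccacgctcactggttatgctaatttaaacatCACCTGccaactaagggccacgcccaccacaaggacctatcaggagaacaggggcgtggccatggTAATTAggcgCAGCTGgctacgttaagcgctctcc

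The Nkx2-2 window held 3 E-boxes and the Neurod1 window 1. Of the Mlxipl windows the upstream held 1, which was CACGTG, and the downstream held 2 beside a TAATTA. Both motifs read the same on either strand. RefSeq gave windows for 25 of the 32 factors, 34 windows in all. CANNTG was in 20 of these 34, and in 66.2% of all 32851 windows of that length. CACGTG, which is also an E-box, was in 3 of the 34 (1 each of Mlxipl, Nkx2-2 and Pdx1) and in 6.02% of all windows. TAATTA was in 2 of the 34 (Hnf4a and Mlxipl) and in 4.84% of all windows. TGTTTAC, a forkhead core searched on both strands, was in 2 of the 34 (Foxa1 and Myt1) and in 3.17% of all windows. A match is a run of letters and not a bound site, and the RNA counts, which are per gene, do not show which Mlxipl start was used.

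The beta-cell factors Pdx1, Nkx6-1, Mafa, Mnx1 and Glis3 had log2 fold changes between -0.06 and 0.18, and 0 of 5 passed. Pdx1 measured 89.7 and 107 CPM in control libraries and 101 and 92.0 CPM in knockout libraries. The knockout values lay between the control values, and the log2 fold change was -0.03 ± 0.15 (SE; 95% CI -0.37 to 0.31). Leaving out control 1 gave -0.15, control 2 gave 0.10 and knockout 2 gave 0.036. Mafa, the leucine-zipper activator that marks mature beta cells, had 62.5 and 71.0 CPM in control and 65.6 and 62.0 CPM in knockout libraries. Its groups overlapped, with a log2 fold change of -0.06 ± 0.14 that was 0.031 without control 2 and -0.15 without control 1.

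Nkx6-1 had 279 and 318 CPM against 297 and 355 CPM, a log2 fold change of 0.13 ± 0.15 (95% CI -0.21 to 0.47), or -0.0090 without knockout 2 and 0.26 without knockout 1. Its highest library was a knockout and its lowest a control, but the groups overlapped. Glis3, a Krüppel-like zinc-finger gene linked to neonatal diabetes in humans, gave 210.02 and 182 CPM in control and 210.52 and 235 CPM in knockout libraries. The groups were separated only by the narrow step from 210.02 to 210.52 CPM, and the log2 fold change of 0.18 ± 0.14 did not pass (adjusted p = 0.9997). It was 0.08 without control 2 and 0.29 without control 1. Mnx1, a homeodomain factor that helps to keep beta cells from turning into delta cells in mice, was less abundant, at 9.58 and 14.1 CPM against 13.8 and 9.28 CPM. Each group held a high and a low library. The log2 fold change of -0.03 ± 0.28 was -0.35 without knockout 1, -0.28 without control 1, 0.28 without control 2 and 0.22 without knockout 2.

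Of 9 factors shared by islet endocrine cells, 6 had values above 0 and 0 passed, with a range of -0.06 to 0.42. Myt1, a zinc-finger gene active from endocrine progenitors onward, had the largest value among all the factors. It measured 101 and 65.9 CPM in control and 112 and 111 CPM in knockout libraries. The knockout libraries lay close together and above both controls, and control 2 was well below the rest. The log2 fold change was 0.42 ± 0.20 (unadjusted p = 0.0660, adjusted p = 0.9997 in edgeR). It was 0.76 without control 1 (adjusted p = 0.170) and 0.15 without control 2. St18, its relative, had 361 and 329 CPM against 330 and 359 CPM, a difference of -0.0030 ± 0.13 on the log2 scale that was 0.065 without control 1 and 0.060 without knockout 1. The ratio of St18 to Myt1 per kb was 3.99 and 5.55 in control and 3.26 and 3.60 in knockout libraries. It was lower in both knockout libraries, with an exact two-sided permutation p of 0.333, the smallest that 2 against 2 libraries can give.

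Nkx2-2, a homeodomain factor needed for beta-cell and alpha-cell formation, measured 106 and 103 CPM in control and 109 and 130 CPM in knockout libraries. The groups were separated only by the narrow step from 105.8 CPM in control 1 to 109.2 CPM in knockout 1. The log2 fold change was 0.20 ± 0.14 (95% CI -0.13 to 0.53). It was 0.07 without knockout 2 and 0.33 without knockout 1. The antisense gene Nkx2-2os shares 278 exon bases with it and had 215 to 242 counts per library, where Nkx2-2 had 894 to 1051. Neurod1, Foxo1, Bach2, Prox1 and Zbtb20 also share exon bases (83 to 674) with neighbouring genes. Neurod1 shares 201 with Cerkl on the same strand, which had 507 to 673 counts. It shares 154 with Gm26755 on the opposite strand, which had 530 to 564 counts. Zbtb20 shares 83 with Mir568 on the same strand. Neurod1 had 383 and 391 CPM in control and 355 and 409 CPM in knockout libraries, with both controls between the knockout values. Its log2 fold change was -0.02 ± 0.13 (95% CI -0.33 to 0.29), or 0.084 without knockout 1 and -0.13 without knockout 2.

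Pax6, the paired-homeodomain activator of hormone genes, gave 300.2 and 415 CPM against 315 and 369 CPM. The control values enclosed the knockout values, and the log2 fold change of -0.06 ± 0.18 was 0.19 without control 2 and 0.048 without knockout 1. Isl1, a LIM-homeodomain partner of Neurod1 and Pdx1, measured 98.1 and 91.8 CPM in control and 86.6 and 132 CPM in knockout libraries. Knockout 1 was the lowest library and knockout 2 the highest. The log2 fold change of 0.20 ± 0.20 was -0.13 without knockout 2 and 0.48 without knockout 1. For Insm1 the log2 fold change of 0.11 ± 0.15 dropped below 0 without control 2 (-0.035) and reached 0.26 when control 1 was the one left out.

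The winged-helix genes Rfx3 and Rfx6, both needed for islet development in mice, parted in knockout 1. Rfx3 measured 205 and 162 CPM in control and 294 and 169 CPM in knockout libraries. Rfx6 measured 126 and 151 CPM against 114 and 169 CPM. Knockout 1 was the highest library for Rfx3 and the lowest for Rfx6, with a ratio of Rfx6 to Rfx3 per kb of 1.06 there and 2.75 in knockout 2. The control ratios were 1.69 and 2.57. The log2 fold changes were 0.34 ± 0.27 for Rfx3 (-0.11 without knockout 1 and 0.68 without knockout 2) and 0.03 ± 0.20 for Rfx6 (0.29 and -0.28 in turn, and -0.10 without control 1).

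Among the alpha-cell and delta-cell factors the Iroquois genes Irx1 and Irx2 kept the same order of libraries. Irx2 measured 11.95 and 16.6 CPM in control and 18.5 and 8.48 CPM in knockout libraries. Irx1 measured 6.15 and 9.14 CPM against 10.7 and 3.71 CPM. For both, the highest and the lowest of the 4 libraries were the 2 knockout libraries, on either side of the controls. Their log2 fold changes were near 0, at -0.07 ± 0.37 for Irx2 and -0.06 ± 0.48 for Irx1. Without knockout 1 they were -0.75 and -1.04, and without knockout 2 they were 0.37 and 0.48; without control 2 they were 0.19 and 0.25. In none of these fits did either gene pass. The ratio of Irx2 to Irx1 per kb stayed between 1.38 and 1.82.

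Gcg, the glucagon gene of alpha cells, was highest in control 1, at 7560 and 5840 CPM against 6925 and 6371 CPM. In knockout 2, where Irx1 and Irx2 were lowest, the summed acinar level was the highest; its part in these values was not tested. Nkx6-1 exceeded Irx2 per kb by a factor of 24.4 and 20.0 in control and 16.8 and 43.8 in knockout libraries (exact permutation p = 1). Hhex, the delta-cell homeodomain gene, gave 45 and 44 counts in controls, against 63 and 39 counts in knockouts, or 5.32, 4.68, 6.54 and 5.17 CPM. Its log2 fold change of 0.24 ± 0.28 was 0.05 without knockout 1 and 0.39 without knockout 2.

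**Figure D3:**
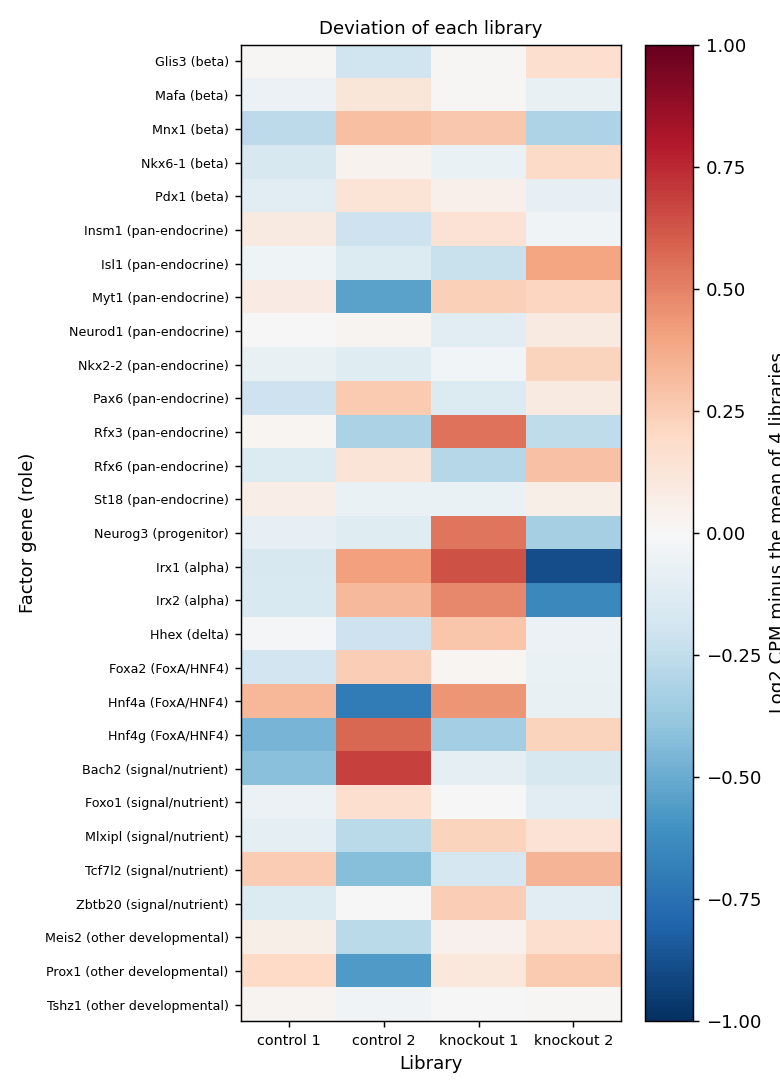
Log2 CPM of each tested factor gene (rows, with its role) in each library (columns) minus the mean of the 4 libraries; red is above and blue below that mean. The deepest colours mark single libraries, such as Irx1 in knockout 2 and Hnf4a in control 2.

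The nuclear receptors Hnf4a and Hnf4g, of which Hnf4a is mutated in a form of human monogenic diabetes, had their extremes in different libraries. Hnf4a measured 122 and 59.7 CPM in control and 132 and 92.3 CPM in knockout libraries. Hnf4g measured 7.22 and 14.9 CPM against 7.89 and 11.7 CPM. The library with the least Hnf4a, control 2, had the most Hnf4g, and the ratio of Hnf4a to Hnf4g per kb was 9.24 and 2.19 in control and 9.12 and 4.31 in knockout libraries. The groups overlapped for both genes. Hnf4a stood at 0.30 ± 0.39 on the log2 scale (95% CI -0.70 to 1.30), with -0.13 without control 2 and 0.91 without control 1. Hnf4g stood at -0.19 ± 0.37, with 0.43 when control 2 was left out, 0.075 when knockout 1 was, and -0.62 when control 1 was.

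Foxa2, the forkhead pioneer factor of pancreatic chromatin, had 49.8 and 67.4 CPM in control and 57.6 and 54.2 CPM in knockout libraries. Its knockout values lay between the controls, with a log2 fold change of -0.07 ± 0.17 that was 0.17 without control 2. Of 8 genes known as HNF4A targets, 6 were tested and 0 passed. All 6 had values above 0 (median 0.07, range 0.05 to 0.30), against 50.6% of all tested genes. Slc2a2, the glucose transporter gene, led them at 0.30 ± 0.26, followed by the pyruvate kinase gene Pklr (which ChREBP also activates) at 0.13 ± 0.24 and the transthyretin gene Ttr at 0.09 ± 0.20. In none of the 6 were the groups apart, against 15.3% of all tested genes with knockout libraries higher and 15.0% with them lower.

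Mlxipl, which encodes the glucose-responsive factor ChREBP, had the smallest p of the 29 tested factors. It gave 102 and 90.1 CPM in control and 127 and 120 CPM in knockout libraries. Both knockout libraries were above both controls, by more than the gap within either group. The fold change was 1.29 (95% CI 1.03 to 1.60), a log2 value of 0.36 ± 0.14; it did not pass (edgeR, unadjusted p = 0.0286, adjusted p = 0.9997). With 1 library left out the log2 value stayed between 0.28 and 0.45, and the unadjusted p in edgeR between 0.0296 (without control 1) and 0.142 (without control 2). The antisense gene Gm43500 shares 235 exon bases with Mlxipl and had 5 to 29 counts, where Mlxipl had 848 to 1220.

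Most genes of the ChREBP programme had values on the other side of 0. Of 10 genes that it is known to activate 8 had values below 0, against 49.4% of all tested genes, with a median of -0.19, and 0 passed in either direction. Gpd1, a glycerol phosphate dehydrogenase gene, measured 26.9 and 26.8 CPM in control and 22.1 and 18.8 CPM in knockout libraries (log2 fold change -0.39 ± 0.17, unadjusted p = 0.0482 in edgeR). Txnip, the thioredoxin-interacting protein gene, measured 353 and 314 CPM against 248.95 and 289.2 CPM (-0.31 ± 0.14, unadjusted p = 0.0597 in edgeR). Knockout libraries lay below both controls for 3 of the 10 genes (Gpd1, Txnip and Acaca), against 15.0% of all tested genes. They lay above both for 0, against 15.3%. At an unadjusted p under 0.05 in edgeR 1 gene was lower and 0 were higher, against 1.96% and 1.55%. Arrdc4, an arrestin-domain relative of Txnip, stood at -0.23 ± 0.17 with overlapping groups.

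**Figure D4:**
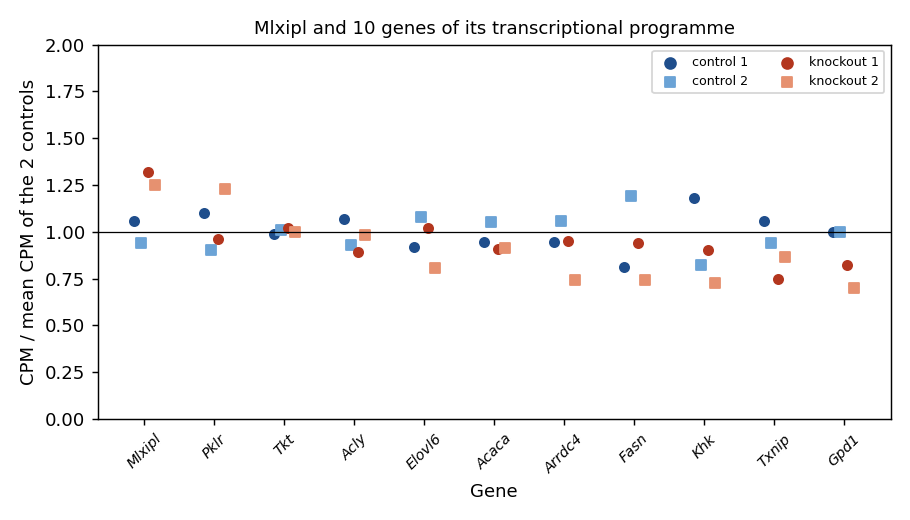
CPM of Mlxipl and of 10 genes of its transcriptional programme in each library, divided by the mean of the 2 control libraries, on a linear axis from 0. Both knockout points of Mlxipl lie above its control points, while those of Gpd1, Txnip and Acaca lie below theirs.

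The other signal-responsive factors overlapped between the groups. Foxo1, the forkhead target of insulin signalling, had 141 and 165 CPM in control and 147 and 136 CPM in knockout libraries. Its log2 fold change was -0.11 ± 0.14, or 0.0081 without control 2 and -0.22 without control 1. Zbtb20, a zinc-finger repressor active in glucose metabolism, ran from 575 CPM in control 1 to 748 CPM in knockout 1, at 0.14 ± 0.16 (-0.041 without knockout 1). Tcf7l2, the Wnt effector whose locus carries type 2 diabetes risk in humans, stood at 0.16 ± 0.26 (-0.15 without control 2 and -0.12 without knockout 2). Bach2, a leucine-zipper repressor, had 14.98 CPM in control 2 and 6.98 to 8.72 CPM in the other 3 libraries. Its log2 value of -0.37 ± 0.35 was 0.29 without control 2 and -0.81 without control 1.

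Prox1, a homeodomain factor of pancreatic development, measured 237 and 140 CPM in control and 222 and 248 CPM in knockout libraries. Control 2 stood well below the other 3, and the log2 fold change of 0.32 ± 0.24 (unadjusted p = 0.221, adjusted p = 0.9997 in edgeR) was -0.0089 without that library and 0.75 without control 1. Meis2, a homeodomain cofactor gene, had 131 and 104 CPM against 129 and 141 CPM (0.20 ± 0.15, 0.046 without control 2 and 0.37 without control 1). Prox1, Meis2 and Tcf7l2 had their highest level in knockout 2, the next in control 1 and the lowest in control 2. The summed acinar level had the same order, and its part in these values was not tested. Mafa, Mnx1 and Foxo1 had the reverse order, from control 2 down to knockout 2. All other tested factors had neither order, and the share of all tested genes with either order was not computed.

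Tshz1, a teashirt zinc-finger gene, varied least of the 29 tested factors, at 178 and 170 CPM in control and 174 and 175 CPM in knockout libraries. Its log2 fold change of 0.0033 ± 0.13, which was -0.028 without control 2 and -0.0035 without knockout 2, was smaller than the gap of 0.06 between the controls.

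Across the 29 tested factors control 2 was the lowest library for 13 and the highest for 8. Knockout 1 was the highest for 10 and the lowest for 3. Knockout 2 was the highest for 9 and the lowest for 6, and control 1 was the highest for 2 and the lowest for 7.

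Other transcription factors of pancreas and islet did not pass either. Of 30 such genes 25 were tested and 0 passed. Values were above 0 for 18, against 50.6% of all tested genes, and the median was 0.12. Thra, a thyroid hormone receptor gene, had 37.7 and 24.4 CPM in control and 47.7 and 49.6 CPM in knockout libraries (log2 fold change 0.65 ± 0.21, unadjusted p = 0.0137, adjusted p = 0.9997 in edgeR). Its groups did not overlap. Nfia, a nuclear factor I gene, stood at 0.41 ± 0.19, and Crem, a cAMP-responsive factor gene, at -0.28 ± 0.14. For 8 of the 25 the knockout libraries were the higher and for 2 the lower without overlap, where 15.3% and 15.0% of all tested genes were.

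Genes that the beta-cell factors are known to activate showed 0 calls among 20 tested, and 0 at an unadjusted p under 0.05. For 15 the value was above 0, against 50.6% of all tested genes. The median was 0.06, and single genes ran from -0.14 to 0.35. The phosphatase inhibitor gene Ppp1r1a measured 88.9 and 66.5 CPM in control and 95.9 and 102 CPM in knockout libraries. The incretin receptor gene Gipr measured 26.3 and 24.2 CPM against 34.2 and 28.5 CPM. Ucn3, the urocortin gene of mature beta cells, measured 262 and 224 CPM against 242 and 354 CPM. The groups overlapped for Ucn3. Of the 20 genes, 2 (Ppp1r1a and Gipr) had knockout libraries above both controls, against 15.3% of all tested genes. For 0 they lay below both, against 15.0%.

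Markers of the cell types in the islet were read beside the factors. The median log2 fold change was 0.04 over 9 tested beta-cell markers, 0.11 over 10 alpha-cell markers, 0.03 over 8 delta-cell markers and 0.06 over 5 gamma-cell markers, with 0 passing. Beta-cell markers summed to 19546 and 16912 CPM in control and 15888 and 21618 CPM in knockout libraries, and alpha-cell markers to 8930 and 6900 CPM against 8157 and 7753 CPM. Markers of non-endocrine cells had medians of 1.27 (12 acinar genes), 0.02 (6 ductal), -0.26 (10 endothelial), -0.37 (9 macrophage), -0.54 (7 stellate and pericyte) and -0.21 (3 neural and glial), again with 0 passing. At an unadjusted p under 0.05 in edgeR, 3 of 9 macrophage, 1 of 10 endothelial and 1 of 7 stellate genes were lower, against 1.96% of all tested genes. Knockout libraries lay below both controls for 5 of these macrophage, 7 endothelial and 4 stellate genes, against 15.0% of all tested genes. They lay above both for 0, 0 and 1 of them, against 15.3%. Macrophage markers summed to 76.6 and 64.1 CPM in control and 57.5 and 49.2 CPM in knockout libraries, without overlap. The ductal genes Cftr and Mmp7 and the delta-cell gene Cckbr had at most 3 counts summed over the 4 libraries. Non-endocrine levels other than acinar summed to at most 542 CPM for any of these lists in a library, and their part in the factor values was not tested.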

How the data were processed

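Whole-islet RNA of 2 control and 2 knockout libraries was sequenced after directional library preparation, per the labels' protocols; the sample labels say knockout where the series' design text says knockdown. The authors deposited raw counts per Ensembl gene, made with HISAT2 and featureCounts on GRCm39, per the submitters' processing notes; tool versions, annotation, strand setting and multi-mapped reads: not given in the sources used here. Symbols came from GENCODE M21 (GRCm38), which named 52403 of 52636 rows, and Ero1b was matched through RefSeq as Ero1lb. Exon lengths came from the same release. Totals ran from 7855665 to 9377220 counts.

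Genes were kept by filterByExpr (minimum count 10), scaled with TMM factors and compared with edgeR 4.0.16 (R 4.3.3), robust quasi-likelihood F test, two-sided, no covariate, Benjamini-Hochberg adjustment over 16924 genes, threshold 0.05. Errors of log2 fold changes are SE. The fit was tested on simulated data. Alternatives were upper-quartile scaling, DESeq2 1.42.0, limma-voom (limma 3.58.1), no filter, the replicate number as a block, and leaving out each library.

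The members and gene lists were chosen with earlier results of these data known. By rule, all 32 factors are accounted for, each other functional list gives up to 3 genes of smallest p, and marker lists give sums and medians. No list was tested as a set.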

Additional observations from a re-analysis of the deposited data

How the results depend on the processing

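None of the 29 tested factors passed in any of the alternatives run, and the smallest adjusted p of a factor was 0.170 (Myt1, edgeR without control replicate 1). The number of genes called over the whole table, 1 as reported, was 6 in DESeq2, 62 with no low-count filter, 6 with the replicate block, 2 with crossed pairing and 1 to 48 with 1 library left out (48 without control replicate 1). The count of factors at an unadjusted p under 0.05, 1 as reported, was 0 in DESeq2, 2 in limma-voom, 4 with no filter, 2 with crossed pairing and 0 to 5 with 1 library left out (5 without control replicate 1, 0 without control replicate 2). With the replicate block it was 1, Myt1 in place of Mlxipl, whose unadjusted p was then 0.0697. The median of the factors, 0.11, stayed above 0, between 0.048 and 0.16 with 1 library left out, and was 0.11 with the replicate block. The numbers were not taken as pairs because no label says what a number shares. Same-numbered libraries tended to deviate in opposite directions (r = -0.30 across 16924 genes), which does not show what they shared. The crossed pairing was added after seeing this.

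With 1 library left out the sign of 23 factors changed, and 6 (Glis3, Nkx2-2, Myt1, Hhex, Mlxipl and Meis2) kept theirs in every alternative. St18 changed sign with no filter (0.0077). Log2 ranges with 1 library left out were -0.15 to 0.10 for Pdx1, -0.0090 to 0.26 for Nkx6-1, -0.15 to 0.031 for Mafa, -0.35 to 0.28 for Mnx1, -0.13 to 0.084 for Neurod1, -0.28 to 0.19 for Pax6, -0.13 to 0.48 for Isl1, -0.035 to 0.26 for Insm1, -0.11 to 0.68 for Rfx3, -0.28 to 0.29 for Rfx6 and -0.070 to 0.065 for St18. They were -0.23 to 0.63 for Neurog3, -1.04 to 0.48 for Irx1, -0.75 to 0.37 for Irx2, -0.27 to 0.17 for Foxa2, -0.13 to 0.91 for Hnf4a, -0.62 to 0.43 for Hnf4g, -0.22 to 0.0081 for Foxo1, -0.15 to 0.53 for Tcf7l2, -0.041 to 0.31 for Zbtb20, -0.81 to 0.29 for Bach2, -0.0089 to 0.75 for Prox1 and -0.028 to 0.033 for Tshz1. The cause was not tested. A group left with 1 library was assumed to vary like the other. Depth limits Neurog3, Hhex, Pou3f4, Foxa1 and Pax4, each at 63 counts or fewer in every library.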
